A study of Mus musculus with 12 samples.

Results

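Plasmacytoid dendritic cells (pDCs) were compared with lo-lo precursors in bulk RNA-sequencing of mouse bone marrow, in 6 of the 12 wells of the plate and 3 wells per population. These wells were selected on measured values, because the population named on the deposited labels disagrees with the source data that the study gives for its expression heatmap. The source data hold 28 transcription factors (TFs) in 12 named samples, and each sample was assigned the well whose counts ranked these TFs in the same order. For every one of the 12 samples, exactly 1 well had 0 discordant pairs among the 378 pairs of TFs, and the next well had at least 7. By this match wells A2, A6 and A10 are lo-lo replicates 1, 2 and 3, and wells A4, A8 and A12 are pDC replicates 1, 2 and 3. The deposited labels name another population for 4 of these 6 wells. They call A2 a pre-cDC, A4 a CCR9lo B220lo cell, A8 a CCR9lo B220hi cell and A10 a pDC, while A6 and A12 carry the matched population. All directions below hold for the matched wells. Grouping by the deposited labels swaps A4 and A10 between the groups, leaves out A2 and A8 and brings in A5 and A11, by the match a pre-cDC and a lo-hi well. In that grouping, edgeR's quasi-likelihood test called 0 genes, 223 had an unadjusted p under 0.05, and the smallest adjusted p was 0.598.

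Cells of all groups came from C57BL/6 mice with no further genetic change or treatment, and were sorted after removal of cells with lineage markers. Both populations were taken from the Flt3+ CD11c+ Siglec-H+ gate, lo-lo as CCR9lo B220lo and pDCs as CCR9hi B220hi cells. The remaining wells hold lo-hi precursors (CCR9lo B220hi) and Siglec-H-negative pre-cDCs. The methods of the study describe adult mice, male and female, aged 2 to 8 months, and its legend speaks of 3 individual mice. For sorting precursors, the methods also describe pooling of marrow from several mice matched for sex and age. Which well came from which mouse or pool is not stated, so p-values measure the spread between these wells. Libraries were made by SCRB-seq, in which reverse transcription starts at the poly(A) tail and mostly 3′ ends are read.

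pDCs are the dendritic cells that sense viral nucleic acids in endosomes and secrete large amounts of type I interferon (IFN). They develop in the bone marrow from dividing Flt3+ progenitors, under the TF TCF4, and leave it as largely non-dividing cells that carry Siglec-H, BST2 and CCR9. Precursors that share the Siglec-H+ phenotype but carry little or no CCR9 can still give rise to conventional dendritic cells (cDCs). These present antigen on MHC class II molecules.

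Total counts were 3175481, 2939173 and 4182923 in lo-lo replicates 1, 2 and 3 and 5995971, 3277565 and 2319600 in pDC replicates 1, 2 and 3. Levels are given as counts per 1000000 counts of the library (CPM) after TMM scaling, always in the order of replicates 1, 2 and 3. A floor of 3 counts corresponds to 0.5 to 1.67 CPM of the raw totals of the 12 wells and covers counting error only. Xist, expressed from the inactive X chromosome of females, was at 412, 472 and 27.3 CPM in lo-lo and 330.2, 583 and 43.8 CPM in pDC wells, and the Y-linked gene Ddx3y at 1.81, 2.03 and 29.8 CPM in lo-lo and 0.169, 3.09 and 62.3 CPM in pDCs. Both wells of replicate number 3 therefore stood apart from the other 4 in sex-linked genes, which the match did not use. Among the 6 wells compared, markers of neutrophils were high in 1: the 16 genes of this list summed to 18833 CPM in lo-lo replicate 1, against 5502 and 6018 CPM in the other lo-lo wells and 3332 to 6783 CPM in the pDC wells. In the wells used only in the fit, the sum was 9938 to 21313 CPM in lo-hi and 4606 to 12116 CPM in pre-cDCs. Without lo-lo replicate 1, 717 genes were higher and 957 lower in pDCs, and without the 4 wells of replicate number 3 there were 749 and 914.

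The sort itself sets the genes of the gate, so their values are given as a description and no test is read from them, although these 5 genes and the 28 matched TFs stayed in the fit across all genes. Siglech stood at 854, 989 and 748 CPM in lo-lo and 2510.3, 2779 and 2961 CPM in pDC wells. Ccr9 was at 67.3, 68.5 and 64.4 CPM in lo-lo and 459.8, 388 and 515 CPM in pDCs, with no overlap. Ptprc, whose B220 isoform was gated, was at 161, 183 and 140.0 CPM in lo-lo and 202, 228 and 288 CPM in pDCs. The count covers all isoforms of the gene. Itgax, which encodes CD11c, ran the other way, at 106, 94.2 and 115 CPM in lo-lo and 23.3, 29.9 and 34.4 CPM in pDCs, and Flt3 likewise at 166, 167 and 189 CPM in lo-lo and 104, 118 and 114 CPM in pDCs.

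Of 15293 genes tested, 954 were higher in pDCs than in lo-lo precursors and 1152 were lower, with adjusted p-values (Benjamini-Hochberg) of the quasi-likelihood test below 0.01. These are 6.24% and 7.53% of the genes tested. The higher genes took 16.3% of all counts in pDCs against 7.86% in lo-lo, and the lower genes 3.70% against 9.48%. The median absolute log2 fold change was 1.21 among the higher and 1.54 among the lower genes. More than 4-fold differences were found for 201 higher and 391 lower genes, and more than 8-fold differences for 77 and 88. The 3 pDC wells lay above all 3 lo-lo wells in 2583 genes (16.9% of those tested) and below them in 2725 (17.8%), and 948 of the 954 higher and 1148 of the 1152 lower genes were among these. Of the calls, 2 higher and 2 lower genes belong to the sort gate and 5 higher and 5 lower genes to the matched TFs. The median log2 fold change of all genes was -0.0152. In sorted bulk samples, fewer cells that carry a transcript and less of it per cell cannot be told apart.

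**Figure D1:**
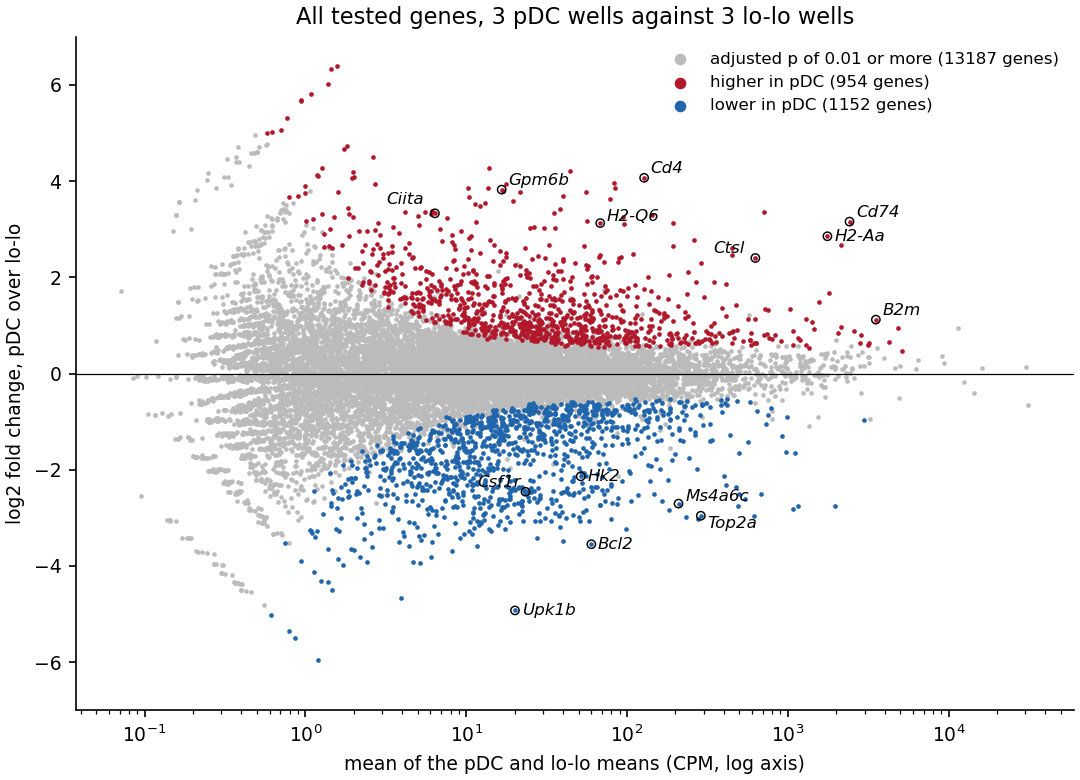
Log2 fold change of pDC over lo-lo wells (vertical axis) against the mean of the group means in CPM (horizontal log axis) for all 15293 tested genes, with the 954 higher genes in red and the 1152 lower genes in blue. Cd4 and the MHC class II genes H2-Aa and Cd74 lie far above 0, and Upk1b, Bcl2 and Top2a far below.

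Among the 15 largest increases with at least 30 CPM in pDCs were a T cell coreceptor, immunoglobulin lambda genes, kallikreins and genes known from nerve and muscle. Cd4 (chr6:124864692-124888221 on GRCm38), the coreceptor of helper T cells that mouse pDCs also carry, stood at 10.6, 22.3 and 11 CPM in lo-lo and 266, 225 and 233 CPM in pDCs (log2 fold change 4.07 ± 0.32, adjusted p = 9.75e-08). Here and below, fold changes are given ± SE. This SE is the absolute log2 fold change divided by the square root of the quasi-likelihood test's F statistic. The 3 pDC wells lay close together, far above the highest lo-lo well. Gpm6b, a membrane protein of neurons and glia, was at 2.11, 2.03 and 2.29 CPM in lo-lo and 32.9, 24.4 and 36.1 CPM in pDC wells (log2 fold change 3.82 ± 0.29, adjusted p = 2.98e-10). It was low in every lo-lo well and the pDC wells were well apart from them. Ncald, which encodes the calcium sensor neurocalcin delta, was likewise low in lo-lo (3.02, 1.01 and 2.52 CPM) and at 29.3, 35.8 and 30.1 CPM in pDCs (log2 fold change 3.80 ± 0.32, adjusted p = 1.92e-09). Pgam2, the muscle form of phosphoglycerate mutase (log2 fold change 3.63 ± 0.32), Nrxn2, a neuronal adhesion protein (3.60 ± 0.30), Pir, an iron-binding nuclear protein (3.33 ± 0.28), Ccdc162 (3.41 ± 0.22) and the olfactory receptor gene Olfr164 (3.70 ± 0.47) were higher as well. Ncald, Nrxn2 and Ccdc162 overlap genes on the other strand, and whether counting used the strand is not given in the sources used here.

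Kallikrein genes of chromosome 7, secreted serine proteases, gave 4 of these 15. Klk1 was at 126, 154 and 97.2 CPM in lo-lo and 1532, 1293 and 1044 CPM in pDC wells (log2 fold change 3.36 ± 0.32, adjusted p = 7.68e-06). Klk1b3 was at 4.53, 5.74 and 3.67 CPM in lo-lo and 106, 85.2 and 58.8 CPM in pDCs (log2 fold change 4.2 ± 0.27, adjusted p = 3.48e-11), and Klk1b27 and Klk1b5 had log2 fold changes of 3.97 ± 0.29 and 3.93 ± 0.33. These genes are near-identical copies, so that reads may have been split between them and the single values are uncertain. Iglc2 and Iglv3, the constant and a variable segment of the immunoglobulin lambda chain, share this limit. Iglc2 stood at 16.3, 8.78 and 8.02 CPM in lo-lo and 182, 144 and 149.9 CPM in pDCs (log2 fold change 3.86 ± 0.30, adjusted p = 2.72e-08), and Iglv3 at 8.15, 10.1 and 4.58 CPM in lo-lo and 51.2, 107 and 151 CPM in pDCs (log2 fold change 3.77 ± 0.42, adjusted p = 3.55e-05).

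The largest decreases from at least 30 CPM were led by Upk1b, a tetraspanin known from the bladder lining, and otherwise held many genes of the cell cycle. Upk1b (chr16:38773184-38800328) stood at 37.4, 38.5 and 40.6 CPM in lo-lo and 0.674, 1.85 and 1.72 CPM in pDCs (log2 fold change -4.92 ± 0.30, adjusted p = 1.9e-11). The antiapoptotic gene Bcl2 (chr1:106538178-106714274) was at 99.0, 123 and 109 CPM in lo-lo and 7.08, 11.4 and 10.7 CPM in pDC wells (log2 fold change -3.55 ± 0.22, adjusted p = 1.9e-11). In both genes the groups were far apart, although Bcl2 overlaps a gene on the other strand. Cnn3, an actin-binding calponin, was at 68.8, 64.5 and 89.8 CPM in lo-lo and 9.77, 5.25 and 3.01 CPM in pDCs (log2 fold change -3.47 ± 0.41, adjusted p = 5.07e-05). Fut7, the fucosyltransferase that makes selectin ligands, was at 59.1, 70.9 and 78.4 CPM in lo-lo and 6.57, 10.2 and 6.01 CPM in pDCs (log2 fold change -3.20 ± 0.30, adjusted p = 1.21e-07). The other 11 were cell division genes, among them the formin Diaph3 (-3.41 ± 0.23), the cohesin regulator Cdca5 (-3.23 ± 0.26), the linker histone gene Hist1h1b (-3.23 ± 0.23) and the DNA ligase Lig1 (-3.03 ± 0.19).

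The genes of 20 lists were then followed, which cover pDC identity, innate sensing, antigen presentation, related lineages, cell division, migration, growth factor receptors, secretion, survival and metabolism.

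**Figure D2:**
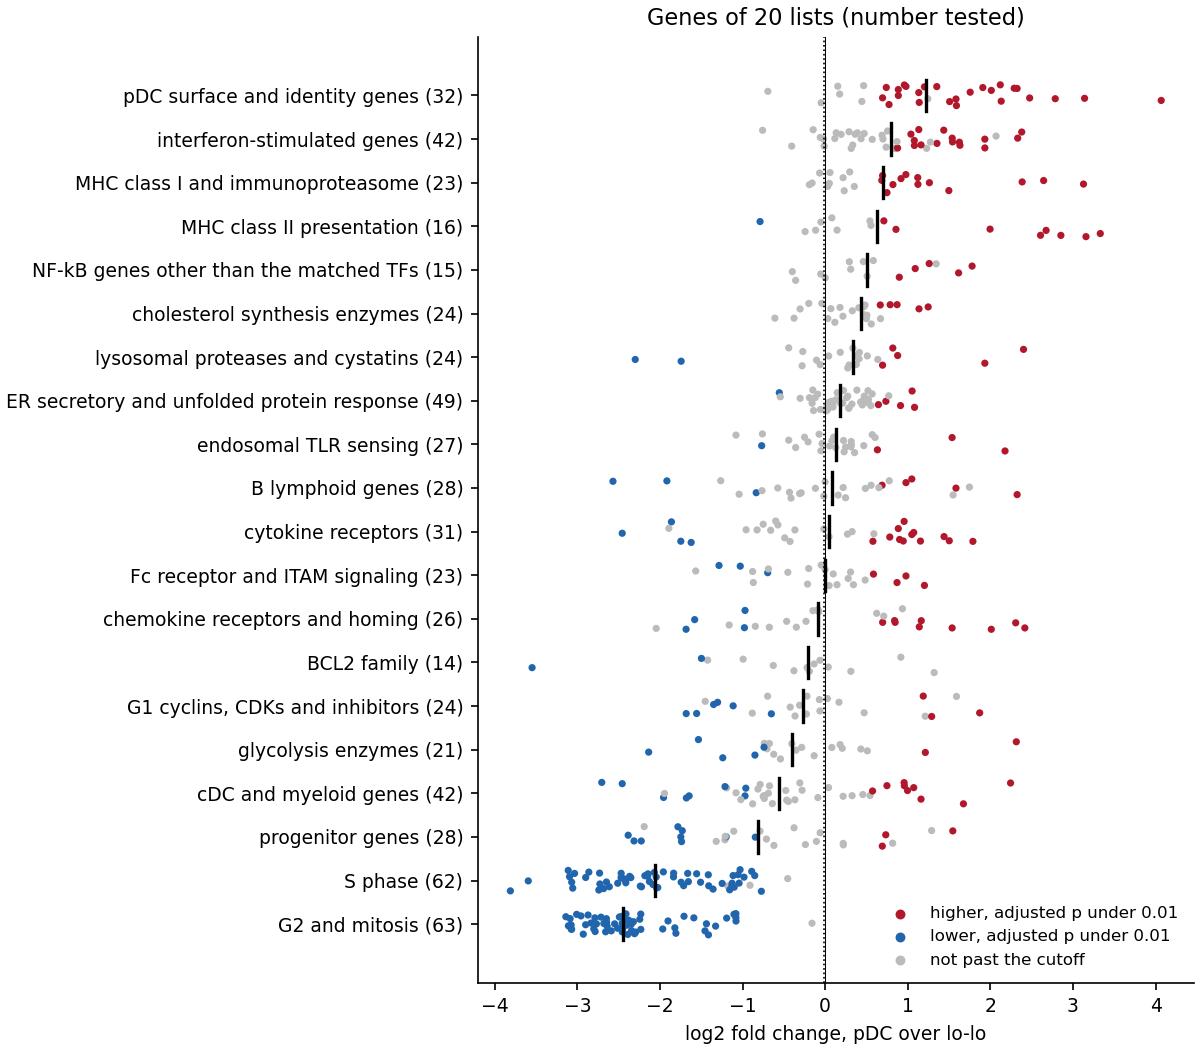
Log2 fold change of pDC over lo-lo wells for each tested gene of 20 lists, with the number tested in brackets, red for higher and blue for lower genes at an adjusted p under 0.01 and grey for the rest. Black bars mark list medians, from -2.45 for G2 and mitosis to 1.22 for pDC identity, and the dotted line the median of all genes at -0.0152.

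Of 32 surface and identity genes of pDCs, 25 were higher in pDCs (78.1%, against 6.24% of all genes) and 0 lower (against 7.53%). The other 7 did not pass the test. The median log2 fold change of the list was 1.22. Klra17, which encodes the inhibitory receptor Ly49Q, stood at 33.2, 36.1 and 30.5 CPM in lo-lo and 226, 178 and 149 CPM in pDCs (log2 fold change 2.48 ± 0.21, adjusted p = 1.35e-09). Bst2, the IFN-inducible tetherin and antigen of antibody PDCA-1, was at 906, 861 and 669 CPM in lo-lo and 1990.4, 1857 and 1493 CPM in pDC wells (log2 fold change 1.13 ± 0.17, adjusted p = 1.2e-05). The difference was large against the spread between wells in both. Dntt, the DNA polymerase of the lymphoid program, was at 21.1, 29.0 and 37.6 CPM in lo-lo and 166, 137 and 139 CPM in pDCs (log2 fold change 2.32 ± 0.20, adjusted p = 1.86e-09). Cd8a, another T cell coreceptor, was at 13.6, 8.44 and 14.2 CPM in lo-lo and 66.7, 38.3 and 53.7 CPM in pDCs (log2 fold change 2.12 ± 0.24, adjusted p = 1.68e-07). The C-type lectin Cd209d (2.29 ± 0.17), the inhibitory receptors Lag3 (2.13 ± 0.33) and Lair1 (1.59 ± 0.16), the endocytic adaptor Pacsin1 (1.76 ± 0.18) and Kdr, the VEGF receptor (2.79 ± 0.30), were higher too.

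Not every gene of pDC identity separated the populations. Ly6d has been described as a marker of progenitors that commit to pDCs, while the study reports cDC fate in Ly6D-high precursors as well. Ly6d stood at 2113, 1599 and 2508 CPM in lo-lo and 2238, 1635 and 2143 CPM in pDC wells, with overlapping groups (log2 fold change -0.05 ± 0.17, adjusted p = 0.893). The study, which clustered genes over all 4 populations, lists Ly6d among those higher in pDCs and lo-hi precursors. Ly6c2 was at 2001, 1867 and 2075 CPM in lo-lo and 3191, 2544 and 2352 CPM in pDCs. Its groups did not overlap, but the adjusted p of 0.0212 missed the cutoff. Upb1, an enzyme of pyrimidine breakdown (log2 fold change 0.15 ± 0.15, adjusted p = 0.555) and Ptprcap, which encodes a partner of CD45 (log2 fold change 0.18 ± 0.15, adjusted p = 0.473), did not pass.

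Of 27 tested genes of endosomal Toll-like receptor (TLR) sensing, 3 were higher and 1 lower in pDCs, with a median log2 fold change of 0.13. As shares these are 11.1% and 3.7% of the list, against 6.24% and 7.53% of all genes. Tlr7, the receptor for single-stranded RNA, stood at 22.9, 20.9 and 17.4 CPM in lo-lo and 90.5, 88.9 and 97.0 CPM in pDCs (log2 fold change 2.18 ± 0.18, adjusted p = 1.28e-09). Tlr12, a receptor for profilin of parasites, was at 19.6, 15.2 and 19.9 CPM in lo-lo and 55.8, 51.9 and 52.0 CPM in pDCs (log2 fold change 1.54 ± 0.18, adjusted p = 3.18e-07), and the TLR chaperone Unc93b1 was at 484, 447 and 559.8 CPM in lo-lo and 912, 731 and 667 CPM in pDCs (log2 fold change 0.63 ± 0.15, adjusted p = 0.00298). All 3 separated the wells without overlap. Tlr9, the receptor for CpG DNA, was low in both groups, at 2.41, 4.05 and 2.52 CPM in lo-lo and 3.03, 3.40 and 5.15 CPM in pDCs, and its difference was not detectable at this depth (log2 fold change 0.32 ± 0.41, adjusted p = 0.665). Slc15a4 (log2 fold change 0.57 ± 0.18, adjusted p = 0.0251), a lysosomal transporter needed for TLR signals in pDCs, did not pass. With the replicate number as a block, its adjusted p was 0.00554, and 5 genes of the list were higher and 2 lower. Hmgb1, a DNA-binding alarmin, was the gene that was lower (log2 fold change -0.77 ± 0.20, adjusted p = 0.00518). Its call was lost without lo-lo replicate 2 or any one pDC well, with adjusted p between 0.0219 and 0.122.

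Where IFN-stimulated genes passed the test, they were higher in pDCs. Of 42 tested, 16 were higher (38.1%, against 6.24% of all genes) and 0 lower (against 7.53%), with a median log2 fold change of 0.80. Ifi44 stood at 10.6, 12.5 and 2.75 CPM in lo-lo and 44.7, 46.3 and 36.9 CPM in pDC wells (log2 fold change 2.38 ± 0.43, adjusted p = 0.00167), and Oasl2, a relative of the RNA-sensing 2′-5′-oligoadenylate synthetases, at 9.05, 7.09 and 5.50 CPM in lo-lo and 32.0, 27.2 and 21.5 CPM in pDCs (log2 fold change 1.93 ± 0.38, adjusted p = 0.00152). Stat2, the TF of the type I IFN receptor, was at 71.5, 76.3 and 59.6 CPM in lo-lo and 143, 159.6 and 161 CPM in pDCs (log2 fold change 1.16 ± 0.19, adjusted p = 3.27e-05). In each of these every pDC well lay above every lo-lo well. Several members varied with the replicate number. Usp18, a negative regulator of the IFN receptor, was at 89.0, 65.8 and 30.1 CPM in pDC replicates 1, 2 and 3 against 32.0, 25.7 and 20.9 CPM in lo-lo (log2 fold change 1.27 ± 0.38, adjusted p = 0.0349). Isg15, a ubiquitin-like modifier, was at 19.5, 24.7 and 5.15 CPM in pDCs against 7.24, 10.1 and 5.04 CPM in lo-lo (log2 fold change 1.23 ± 0.51, adjusted p = 0.121). In both genes replicate 3 was the lowest well of each population, and the pDC well lay above the lo-lo well of the same number. With the replicate number as a block, the adjusted p was 1.14e-06 for Usp18 and 0.00114 for Isg15, and 22 genes of the list were higher and 1 lower. The mean log2(CPM + 1) of the list, relative to the lo-lo wells, was lowest in replicate 3 of all 4 populations. Without pDC replicate 3 the adjusted p was 0.00121 for Isg15, which then passed, while for Ifi44 it was 0.0117 without pDC replicate 1.

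The motif of IFN-stimulated response elements (ISREs), taken as 2 copies of GAAA with any 2 bases between them on either strand, was looked for in RefSeq promoters on GRCm38.p6, from 250 bases before to 50 bases after the start site. Promoters were matched by symbol, with those of a single chromosome left out, which gave 10058 promoters for the 15293 tested genes. The motif was found in 16 of 30 IFN-stimulated promoters (53.3%) and in 3.18% of all 10058. Among the promoters of genes higher in pDCs the share was 5.18%, and among those of lower genes 3.72%. Shown are the 2 called list genes with the lowest adjusted p that hold the motif, as 120 bases upstream of the start site with the motif in capitals. They are Bst2 (chr8:71537538-71537657, minus strand), in which a pair of matches overlaps, and Stat2 (chr10:128270248-128270367, plus strand).
Bst2: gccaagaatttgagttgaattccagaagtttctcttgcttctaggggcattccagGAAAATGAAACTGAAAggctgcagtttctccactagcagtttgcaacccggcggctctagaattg
Stat2: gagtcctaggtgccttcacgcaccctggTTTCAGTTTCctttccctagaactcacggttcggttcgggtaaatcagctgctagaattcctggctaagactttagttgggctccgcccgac

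MHC class I genes were the next group. Of 23 class I presentation and immunoproteasome genes, 13 were higher in pDCs (56.5%, against 6.24% of all genes) and 0 lower (against 7.53%). The median log2 fold change was 0.70. B2m, the light chain shared by all class I molecules, stood at 2329, 2086 and 2253 CPM in lo-lo and 5870.0, 4577 and 4051 CPM in pDCs (log2 fold change 1.12 ± 0.16, adjusted p = 4.45e-06). The classical heavy chain H2-K1 was at 888, 861 and 702 CPM in lo-lo and 2519.8, 2305 and 2094 CPM in pDCs (log2 fold change 1.5 ± 0.16, adjusted p = 1.13e-07), and H2-D1 at 1620.3, 1272 and 1443 CPM in lo-lo and 3768, 2641 and 2125 CPM in pDCs (log2 fold change 0.98 ± 0.19, adjusted p = 0.000341). The folds were 2.17 for B2m, 2.82 for H2-K1 and 1.97 for H2-D1, and no lo-lo well reached a pDC well. The nonclassical Qa genes differed more, with log2 fold changes of 2.38 ± 0.20 for H2-Q4, 2.64 ± 0.23 for H2-Q7 and 3.13 ± 0.24 for H2-Q6, but they are close copies between which reads may be divided. Nlrc5, the transactivator of class I genes, was at 17.2, 8.78 and 14 CPM in lo-lo and 27.0, 25.9 and 22.8 CPM in pDCs (log2 fold change 0.92 ± 0.23, adjusted p = 0.00478). The peptide transporter genes Tap1 (log2 fold change 0.06 ± 0.15, adjusted p = 0.849) and Tap2 (log2 fold change 0.30 ± 0.19, adjusted p = 0.316) did not pass. Neither did the immunoproteasome subunits Psmb8 (log2 fold change 0.22 ± 0.18, adjusted p = 0.456) and Psmb9 (log2 fold change 0.23 ± 0.17, adjusted p = 0.394). Whether their changes differed from those of the called genes was not tested. Tap1 and Psmb9 overlap each other on opposite strands.

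Of 16 genes of MHC class II presentation, 8 were higher in pDCs (50%, against 6.24% of all genes) and 1 lower (6.25%, against 7.53%). The median log2 fold change was 0.63. Ciita, the master transactivator of class II genes, stood at 0.905, 1.35 and 1.15 CPM in lo-lo and 12.6, 9.88 and 12.5 CPM in pDC wells (log2 fold change 3.33 ± 0.37, adjusted p = 1.14e-07). The lo-lo values were near the floor. The invariant chain gene Cd74 was at 381, 571 and 512 CPM in lo-lo and 6126, 4024 and 2905 CPM in pDCs (log2 fold change 3.16 ± 0.35, adjusted p = 7.99e-05). H2-Aa, the class II alpha chain, was at 307, 555 and 424 CPM in lo-lo and 3746, 2873 and 2673 CPM in pDCs (log2 fold change 2.85 ± 0.31, adjusted p = 3.6e-05). The pDC wells of both genes lay far above the highest lo-lo well. The beta chains H2-Ab1 (2.67 ± 0.29) and H2-Eb1 (2.61 ± 0.38) and H2-Oa (2.0 ± 0.19), which restrains peptide loading, were higher as well. H2-DMa, a subunit of the peptide loading factor, overlapped between groups at 517, 449 and 645 CPM in lo-lo and 559, 421 and 380.0 CPM in pDCs (log2 fold change -0.24 ± 0.18, adjusted p = 0.402). Ifi30, a thiol reductase that prepares antigens, was at 153, 151 and 179 CPM in lo-lo and 87.5, 99.1 and 93.6 CPM in pDCs and was the member that was lower (log2 fold change -0.79 ± 0.16, adjusted p = 0.000495). The pDC values of Cd74 were lowest in replicate 3.

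The Y box of class II promoters was searched as CTGATTGG on either strand, letters that also hold the CCAAT box read on the other strand. It was present in 3 of 11 promoters of class II presentation (27.3%), namely H2-Oa, H2-Aa and H2-Eb1, against 6.05% of all promoters. Other lists held it too, with 8 of 20 promoters of class I presentation (40.0%), 12 of 55 of G2 and mitosis (21.8%) and 9 of 46 of S phase (19.6%). The share was 5.76% among genes higher and 11% among genes lower in pDCs. Shown are H2-Oa (chr17:34092259-34092378, plus strand) and H2-Aa (chr17:34287824-34287943, minus strand), upstream stretches of 120 bases with the motif in capitals.
H2-Oa: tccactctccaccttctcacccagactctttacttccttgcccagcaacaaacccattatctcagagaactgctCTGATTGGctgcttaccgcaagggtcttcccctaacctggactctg
H2-Aa: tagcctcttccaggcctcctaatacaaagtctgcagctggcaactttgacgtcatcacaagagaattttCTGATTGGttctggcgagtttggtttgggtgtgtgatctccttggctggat

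**Figure D3:**
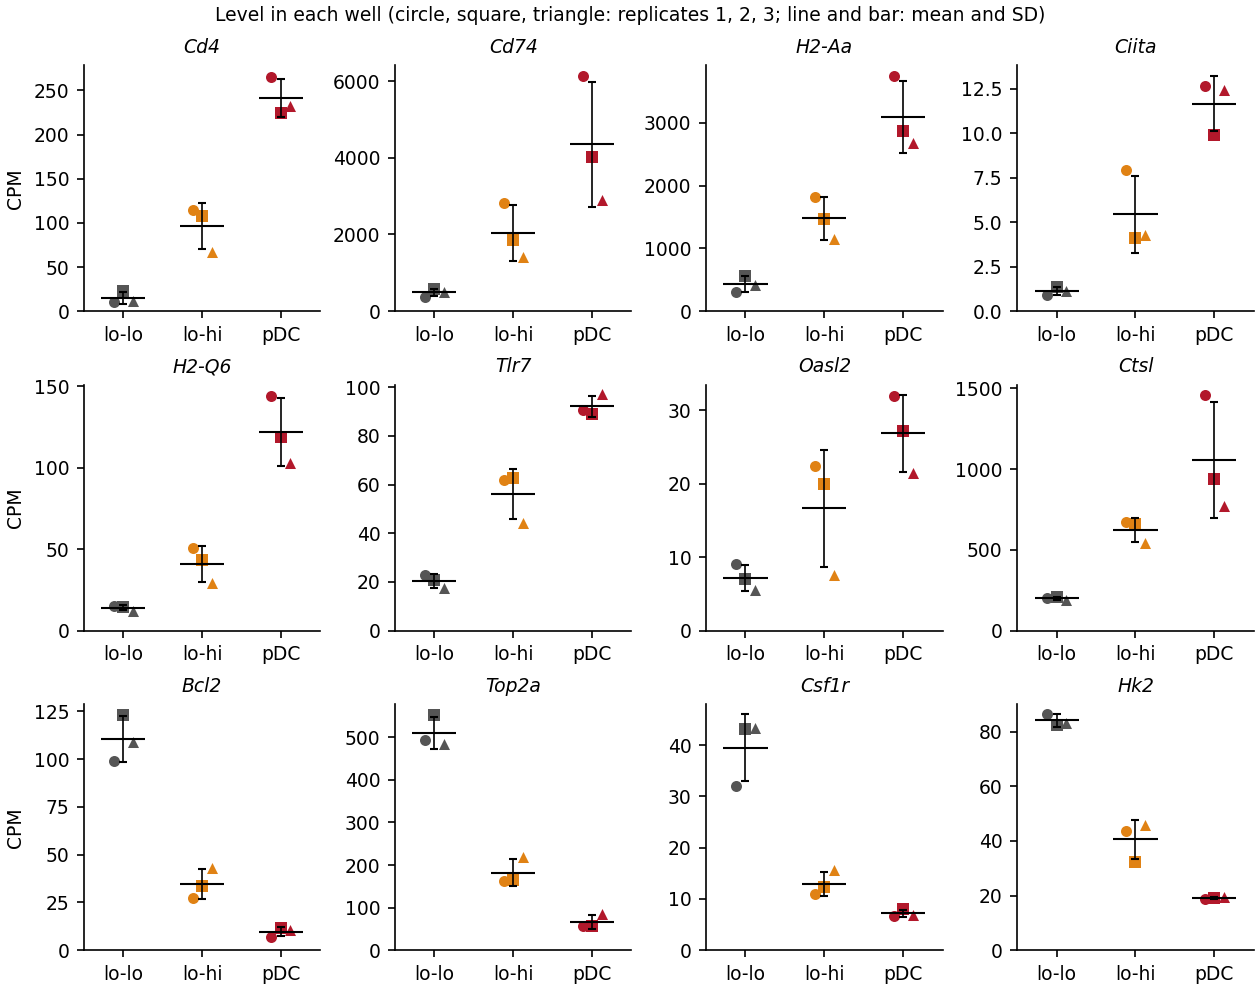
Level of 12 genes in CPM (linear axes from 0) in lo-lo, lo-hi and pDC wells, with a circle, square and triangle for replicates 1, 2 and 3 and lines and bars for mean and SD of 3 wells. In the plot 8 genes are higher and 4 are lower in pDCs, with no overlap between pDC and lo-lo wells, and the mean of the lo-hi wells lies between the means of the other groups in all 12.

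Genes of cell division were lower in pDCs almost without exception. Of 62 genes of DNA replication and S phase, 59 were lower (95.2%, against 7.53% of all genes) and 0 higher (against 6.24%). The median log2 fold change was -2.06. Of 63 genes of G2 and mitosis, 62 were lower (98.4%, against 7.53%) and 0 higher (against 6.24%), with a median of -2.45. Mcm7, a subunit of the replicative helicase, stood at 121, 128 and 133 CPM in lo-lo and 24.4, 21.0 and 26.2 CPM in pDCs (log2 fold change -2.41 ± 0.17, adjusted p = 7.84e-11). Pcna, the sliding clamp of the DNA polymerases, was at 142, 126 and 162 CPM in lo-lo and 56.6, 54.0 and 57.1 CPM in pDCs (log2 fold change -1.36 ± 0.16, adjusted p = 2.5e-07). Top2a, the topoisomerase of dividing cells, was at 492, 552 and 483 CPM in lo-lo and 55.8, 57.4 and 85.4 CPM in pDC wells (log2 fold change -2.96 ± 0.19, adjusted p = 2.7e-11). Mki67, the gene of the proliferation antigen Ki-67, was at 268, 342 and 241 CPM in lo-lo and 31.2, 42.6 and 64.8 CPM in pDCs (log2 fold change -2.65 ± 0.24, adjusted p = 7.18e-08). The transcripts did not vanish, since all of these were above the floor in every pDC well. Cdk1, the mitotic kinase, was at 59.4, 61.1 and 67.4 CPM in lo-lo and 9.61, 8.64 and 12.5 CPM in pDCs (log2 fold change -2.64 ± 0.21, adjusted p = 6.35e-10). At an unadjusted p under 0.05, as with DESeq2 at the adjusted cutoff, 0 genes of both lists were higher. The members not called were Fen1, Casp8ap2 and Ubr7 in the S phase list and Ctcf in the mitotic list, named after their values were seen. With the block Casp8ap2 passed (adjusted p = 0.000209). All 16 neutrophil markers also had a fold change below 0 but 0 of them passed the test (5 with the replicate number as a block), and the part of such cells in these differences was not tested.

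Promoters of the division genes held 2 motifs. The E2F site, taken as TTTCCCGC, TTTCGCGC, TTTGCCGC or TTTGGCGC on either strand, was found in 17 of 46 S phase promoters (37.0%), in 3 of 55 promoters of G2 and mitosis (5.45%) and in 4.16% of all promoters. The CHR element of mitotic genes, TTTGAA or TTCGAA on either strand, was found in 42 of 55 promoters of G2 and mitosis (76.4%), in 7 of 46 S phase promoters (15.2%) and in 14.3% of all. Among genes lower in pDCs the shares were 10.3% for the E2F site and 23.6% for the CHR element, and among higher genes 2.16% and 15.1%. In 0 promoters did matches of the E2F site and the CHR element share bases, while matches of the ISRE shared bases with an E2F site in 2 promoters and with a CHR element in 9. The upstream stretches of 120 bases come from Mcm7 (chr5:138171985-138172104, minus strand) and the MYC target Cdca7 (chr2:72476092-72476211, plus strand) for the E2F site, and from Top2a (chr11:99024306-99024425, minus strand) and the chromatin protein gene Hmgb2 (chr8:57511593-57511712, plus strand) for the CHR element, with the motif of each pair in capitals.
Mcm7: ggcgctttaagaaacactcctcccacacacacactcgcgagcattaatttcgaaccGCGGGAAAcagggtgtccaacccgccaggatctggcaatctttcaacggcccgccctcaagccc
Cdca7: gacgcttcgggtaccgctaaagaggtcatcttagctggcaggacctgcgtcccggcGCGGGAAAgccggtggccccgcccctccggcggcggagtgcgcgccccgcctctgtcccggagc
Top2a: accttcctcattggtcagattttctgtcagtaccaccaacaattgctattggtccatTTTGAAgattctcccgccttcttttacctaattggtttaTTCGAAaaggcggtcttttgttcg
Hmgb2: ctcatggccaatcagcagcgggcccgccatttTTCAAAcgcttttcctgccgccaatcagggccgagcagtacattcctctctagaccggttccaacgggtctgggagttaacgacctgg

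**Figure D4:**
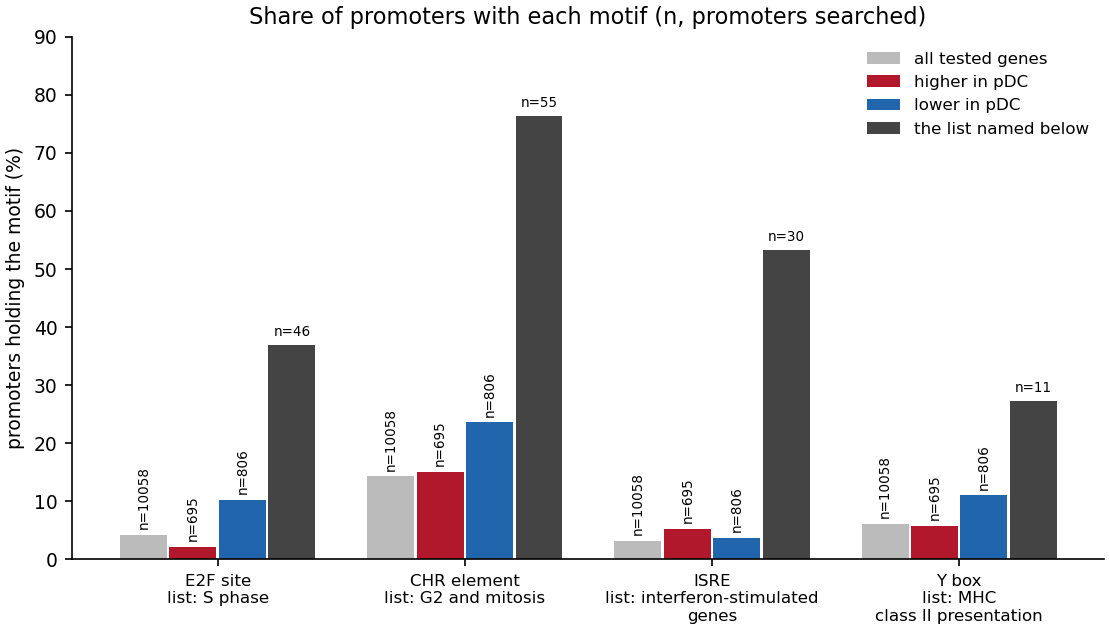
Percentage of promoters that hold each of 4 motifs, for all 10058 promoters, those of genes higher or lower in pDCs, and those of the gene list named under each motif, with the number of promoters searched above the bars. The list bars reach 37.0% (E2F site, S phase), 76.4% (CHR element, G2 and mitosis), 53.3% (ISRE) and 27.3% (Y box), and the share of the Y box in class I promoters, 40.0%, is not drawn.

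Regulators of G1 had calls in both directions. Of 24 tested, 6 were lower (25%, against 7.53% of all genes) and 3 higher (12.5%, against 6.24%). The median log2 fold change was -0.27. Cyclin D3 (Ccnd3) stood at 88.1, 63.8 and 86.8 CPM in lo-lo and 24.8, 28.7 and 28.3 CPM in pDCs (log2 fold change -1.56 ± 0.18, adjusted p = 2.19e-07), and Cdk2 at 23.8, 22.3 and 27.3 CPM in lo-lo and 7.25, 7.72 and 8.16 CPM in pDCs (log2 fold change -1.68 ± 0.21, adjusted p = 7.81e-07). The groups were apart in both. Ccnd1 overlapped at 320.1, 346 and 308 CPM in lo-lo and 329, 406 and 359 CPM in pDCs (log2 fold change 0.17 ± 0.17, adjusted p = 0.561). The antiproliferative gene Btg2 was at 193, 160.4 and 178 CPM in lo-lo and 592, 671 and 683 CPM in pDCs (log2 fold change 1.87 ± 0.15, adjusted p = 1.02e-09). Of the CDK inhibitors, Cdkn1b (log2 fold change -0.06 ± 0.22, adjusted p = 0.891), Cdkn2c (log2 fold change -0.23 ± 0.18, adjusted p = 0.436) and Cdkn2d (log2 fold change -0.36 ± 0.18, adjusted p = 0.154) did not pass.

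Calls among genes of progenitors were mostly lower. Of 28 tested, 9 were lower (32.1%, against 7.53% of all genes) and 3 higher (10.7%, against 6.24%). The median log2 fold change was -0.82. Cd34, a surface marker of progenitors, stood at 12.4, 13.2 and 17.0 CPM in lo-lo and 2.19, 3.40 and 3.44 CPM in pDC wells (log2 fold change -2.31 ± 0.31, adjusted p = 3.07e-06). Cd93, the receptor also called AA4.1, was at 73.3, 72.3 and 78.6 CPM in lo-lo and 14.2, 16.1 and 18.5 CPM in pDCs (log2 fold change -2.23 ± 0.18, adjusted p = 5.87e-10), and Kit, the receptor of stem cell factor, at 8.15, 6.08 and 6.87 CPM in lo-lo and 1.35, 1.85 and 3.86 CPM in pDCs (log2 fold change -1.75 ± 0.36, adjusted p = 0.000582). Lower levels held in every pDC well. The TF genes Sox4 (-1.78 ± 0.22), Myc (-1.73 ± 0.42) and Myb (-1.2 ± 0.21) were lower too, whereas Ets1 (1.55 ± 0.22), Hoxa7 (0.73 ± 0.17) and Lmo2 (0.69 ± 0.16) were higher. The call of Kit was lost without pDC replicate 1, with an adjusted p of 0.0137.

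Genes of cDCs and myeloid cells split. Of 42 tested, 9 were higher (21.4%, against 6.24% of all genes) and 8 lower (19%, against 7.53%). The median log2 fold change was -0.56. Ms4a6c, a membrane protein of myeloid cells, stood at 345, 357 and 386 CPM in lo-lo and 56.5, 49.7 and 61.0 CPM in pDCs (log2 fold change -2.70 ± 0.16, adjusted p = 1.9e-11). Csf1r, the receptor of macrophage colony-stimulating factor, was at 32.0, 43.2 and 43.3 CPM in lo-lo and 6.74, 8.03 and 6.87 CPM in pDCs (log2 fold change -2.46 ± 0.22, adjusted p = 4.83e-09). Itgam (-1.68 ± 0.26), which encodes CD11b, and the chemokine receptor Cx3cr1 (-0.97 ± 0.16) were lower as well. Lyz2 and Cst3, used as general myeloid genes, did not pass (log2 fold change -0.79 ± 0.31, adjusted p = 0.106 and log2 fold change -0.28 ± 0.16, adjusted p = 0.259). In the other direction, Id3, an inhibitor of E proteins, was at 6.64, 8.10 and 8.25 CPM in lo-lo and 49.4, 28.1 and 30.1 CPM in pDCs (log2 fold change 2.24 ± 0.28, adjusted p = 1.15e-06). The lectins Cd209a (1.16 ± 0.25), Mgl2 (1.67 ± 0.29) and Clec10a (1.0 ± 0.17) were higher. Clec9a (log2 fold change 0.54 ± 0.17, adjusted p = 0.0204) and Xcr1 (log2 fold change -0.64 ± 0.53, adjusted p = 0.452), receptors of the cDC1 subset, did not pass. With the block by replicate number, the list had 14 lower genes, Lyz2 among them with an adjusted p of 0.00042. Among the 6 wells compared, the neutrophil sum was highest in lo-lo replicate 1. With the block 5 of the 16 neutrophil markers were lower, and the part of such cells in these myeloid genes was not tested.

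Calls among cytokine receptors were mostly higher. Of 31 tested, 12 were higher (38.7%, against 6.24% of all genes) and 4 lower (12.9%, against 7.53%). The median log2 fold change was 0.05. Besides Csf1r and Kit, the lower receptors were Il6st, the shared gp130 chain, at 95.7, 104 and 96.5 CPM in lo-lo and 26.5, 32.4 and 38.6 CPM in pDCs (log2 fold change -1.62 ± 0.20, adjusted p = 8.73e-07), and Il13ra1 (-1.86 ± 0.30). Il7r, the receptor of interleukin-7, was higher, at 70.3, 83.1 and 64.6 CPM in lo-lo and 139, 154 and 158 CPM in pDCs (log2 fold change 1.05 ± 0.18, adjusted p = 5.93e-05), as was Tnfrsf13b, the TACI receptor for BAFF and APRIL, at 77.5, 73.3 and 70.3 CPM in lo-lo and 219.8, 199 and 179 CPM in pDCs (log2 fold change 1.44 ± 0.16, adjusted p = 9.36e-08). Neither receptor overlapped between groups. Of the type I IFN receptor chains, Ifnar1 was at 104, 87.4 and 91.0 CPM in lo-lo and 131, 132 and 159 CPM in pDCs (log2 fold change 0.58 ± 0.16, adjusted p = 0.00847), while Ifnar2 did not pass (log2 fold change 0.27 ± 0.14, adjusted p = 0.188). The chains Csf2rb (0.96 ± 0.15) and Csf2rb2 (1.07 ± 0.15) were both higher but are close copies, and Csf2ra did not pass (log2 fold change -0.37 ± 0.19, adjusted p = 0.192). With the block by replicate number, 8 receptors were lower.

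Genes of migration and homing had calls in both directions. Of 26 tested, 9 were higher (34.6%, against 6.24% of all genes) and 4 lower (15.4%, against 7.53%). The median log2 fold change was -0.08. Cxcr4, the receptor that holds cells in the bone marrow, stood at 36.5, 34.8 and 39.4 CPM in lo-lo and 12.6, 9.88 and 11.6 CPM in pDC wells (log2 fold change -1.68 ± 0.20, adjusted p = 3.06e-07). Cxcr3, a receptor for IFN-induced chemokines, was at 17.5, 14.2 and 16.7 CPM in lo-lo and 118, 68.5 and 49.8 CPM in pDCs (log2 fold change 2.31 ± 0.24, adjusted p = 1.52e-07), with replicate 1 the highest. The pDC wells thus held less Cxcr4 and more Cxcr3 without overlap. P2ry14, a receptor for UDP sugars (2.42 ± 0.21), the integrin chains Itgal (1.14 ± 0.16) and Itga4 (0.85 ± 0.21) and Cd44 (1.16 ± 0.14) were higher. Gpr183, a receptor for oxysterols, was lower (-0.98 ± 0.25), and Ccr7, the receptor for lymph node homing, did not pass (log2 fold change -1.16 ± 0.39, adjusted p = 0.0325).

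B lymphoid genes had calls in both directions, with the share of lower genes near that of all genes. Of 28 tested, 5 were higher (17.9%, against 6.24% of all genes) and 3 lower (10.7%, against 7.53%), with a median log2 fold change of 0.08. The inhibitory receptor Cd22 stood at 21.1, 14.5 and 21.8 CPM in lo-lo and 2.53, 2.78 and 5.15 CPM in pDCs (log2 fold change -2.57 ± 0.30, adjusted p = 3.48e-07), and the kinase gene Blk at 15.4, 11.1 and 15.6 CPM in lo-lo and 3.37, 2.78 and 5.58 CPM in pDCs (log2 fold change -1.92 ± 0.29, adjusted p = 1.34e-05). Bach2 was the third lower gene (log2 fold change -0.83 ± 0.19, adjusted p = 0.00182). Besides Dntt and Il7r, Fcrla (1.58 ± 0.18), the adaptor Blnk (0.98 ± 0.17) and the signalling chain Cd79b (0.69 ± 0.18) were higher. Cd79b missed the cutoff without pDC replicate 1 or 2 or lo-lo replicate 2 or 3, with adjusted p from 0.0152 to 0.0388. Of genes that define B cells, Pax5 was at 6.34, 5.06 and 1.83 CPM in lo-lo and 5.22, 4.01 and 4.72 CPM in pDCs (log2 fold change 0.16 ± 0.52, adjusted p = 0.886), with overlapping groups. The 10 markers of B and plasma cells summed to 58.9 to 122 CPM in lo-lo and 241 to 396 CPM in pDC wells, with 1 of 10 called (Iglc2, named after its value was seen). The part of such cells in the lambda chain genes was not tested. Igkc, the kappa constant segment, was at 56.1, 21.6 and 22 CPM in lo-lo and 149, 121 and 60.1 CPM in pDCs (log2 fold change 1.75 ± 0.77, adjusted p = 0.162).

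Genes of the secretory pathway and the unfolded protein response came next. Of 49 tested, 5 were higher (10.2%, against 6.24% of all genes) and 1 lower (2.04%, against 7.53%), or 9 and 1 with the replicate number as a block, with a median log2 fold change of 0.18. Xbp1, the TF of secretory cells, stood at 127, 119 and 125 CPM in lo-lo and 336, 249 and 199 CPM in pDCs (log2 fold change 1.08 ± 0.17, adjusted p = 2.71e-05). Dnajb9 (1.05 ± 0.20), Edem2 (0.91 ± 0.19), Atf6 (0.74 ± 0.20) and Herpud1 (0.64 ± 0.15) were the other higher genes, and Rpn1, of the glycosylation complex, the lower one (-0.55 ± 0.15). Atf6 missed the cutoff without any one well other than pDC replicate 1 (adjusted p 0.012 to 0.0477), and so did Rpn1 (0.0207 to 0.0491). The chaperone genes Hspa5 (log2 fold change 0.46 ± 0.14, adjusted p = 0.0198) and Hsp90b1 (log2 fold change 0.13 ± 0.14, adjusted p = 0.593) and Atf4 (log2 fold change -0.06 ± 0.15, adjusted p = 0.853) did not pass.

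In the BCL2 family, the median log2 fold change was -0.21. Of the 14 genes tested, 2 were lower (14.3%, against 7.53% of all genes) and 0 higher (against 6.24%). Beside Bcl2 this was Pmaip1, the proapoptotic NOXA gene, at 12.7, 17.9 and 28.2 CPM in lo-lo and 7.25, 6.79 and 6.87 CPM in pDCs (log2 fold change -1.5 ± 0.26, adjusted p = 8.26e-05). The antiapoptotic genes Mcl1 (log2 fold change -0.13 ± 0.17, adjusted p = 0.646) and Bcl2l1 (log2 fold change 0.04 ± 0.25, adjusted p = 0.95) overlapped between groups. Whether the change of Bcl2 differed from theirs was not tested.

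Of 24 lysosomal genes, 5 were higher (20.8%, against 6.24% of all genes) and 2 lower (8.33%, against 7.53%). The median log2 fold change was 0.34. Ctsl, which encodes cathepsin L, stood at 205, 206 and 189.7 CPM in lo-lo and 1459.5, 939.7 and 769.9 CPM in pDCs (log2 fold change 2.40 ± 0.21, adjusted p = 2.41e-08). The pDC wells spread more than the lo-lo wells, with replicate 1 the highest, and did not overlap with them. Cathepsins O (1.93 ± 0.21), B (0.88 ± 0.15), H (0.82 ± 0.18) and C (0.69 ± 0.19) were higher, whereas the cystatin Cst7 (-2.30 ± 0.33) was lower. Ctsc missed the cutoff without any one well other than pDC replicate 3, with adjusted p from 0.0181 to 0.0812.

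Among 23 genes of Fc receptors and ITAM signalling, 4 were higher (17.4%, against 6.24% of all genes) and 3 lower (13%, against 7.53%). The median log2 fold change was 0.00. Cd300c (1.2 ± 0.15), Blnk, the kinase gene Fgr (0.87 ± 0.18) and the adaptor Tyrobp, also called DAP12 (0.59 ± 0.15), were higher. Tyrobp missed the cutoff without lo-lo replicate 1 or 2 or pDC replicate 1 or 2, with adjusted p from 0.0146 to 0.0339. Pira2 (-1.28 ± 0.23), the inhibitory Fc receptor gene Fcgr2b (-1.03 ± 0.18) and Cd300a (-0.70 ± 0.19) were lower. Fcer1g, the partner chain of Fc receptors, did not pass (log2 fold change -0.20 ± 0.15, adjusted p = 0.416).

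Of 15 genes of the NF-kB pathway outside the matched TFs, 5 were higher (33.3%, against 6.24% of all genes) and 0 lower. Among all genes 7.53% were lower. The median log2 fold change of the list was 0.51. Traf1, an NF-kB target and TNF receptor adaptor, stood at 18.1, 19.9 and 22 CPM in lo-lo and 64.2, 65.4 and 78.1 CPM in pDC wells (log2 fold change 1.78 ± 0.19, adjusted p = 5.56e-08), and Nfkb2 at 5.73, 9.79 and 6.42 CPM in lo-lo and 24.6, 17.3 and 24.5 CPM in pDCs (log2 fold change 1.62 ± 0.24, adjusted p = 1.22e-05). The inhibitors Tnfaip3 (1.26 ± 0.25) and Nfkbie (1.09 ± 0.18) and Birc3 (0.90 ± 0.17) were higher, and Rela did not pass (log2 fold change 0.29 ± 0.16, adjusted p = 0.211).

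In metabolism, 5 of 21 glycolysis genes were lower (23.8%, against 7.53% of all genes) and 2 higher (9.52%, against 6.24%). The median log2 fold change was -0.40. Hk2, the first enzyme of glycolysis in dividing cells, stood at 86.6, 82.4 and 83.2 CPM in lo-lo and 18.9, 19.1 and 19.3 CPM in pDCs (log2 fold change -2.14 ± 0.17, adjusted p = 8.41e-10). The spread between replicates was small in both groups. Ldhb, a lactate dehydrogenase subunit, was at 29.0, 25.7 and 18.3 CPM in lo-lo and 156, 117 and 84.6 CPM in pDCs (log2 fold change 2.31 ± 0.24, adjusted p = 2.06e-07), while Ldha did not pass (log2 fold change -0.28 ± 0.18, adjusted p = 0.29). Of 24 genes of cholesterol synthesis, 5 were higher (20.8%, against 6.24% of all genes) and 0 lower (against 7.53%). The median log2 fold change was 0.43. The 5 higher genes were Insig1 (1.25 ± 0.19), Dhcr7 (1.14 ± 0.22), Lss (0.87 ± 0.24), Msmo1 (0.79 ± 0.18) and Pmvk (0.67 ± 0.16).

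The 28 TFs of the rank match carry the choice of wells, so their levels are given as a description. Irf7, which drives type I IFN transcription, stood at 114, 91.8 and 65.5 CPM in lo-lo and 544, 402 and 213 CPM in pDC wells. Relb was at 7.85, 6.08 and 8.25 CPM in lo-lo and 27.5, 22.2 and 32.6 CPM in pDCs, and Spib, a TF of pDCs and B cells, at 222, 209 and 248 CPM in lo-lo and 541, 461 and 405 CPM in pDCs. In these 3 the groups did not overlap. Tcf4, the TF that defines pDCs, was at 1455, 1789.8 and 1364 CPM in lo-lo and 1693, 2609 and 3131 CPM in pDCs, with 1 pDC well between the lo-lo wells. Zbtb46, a TF of committed cDCs, was at 11.5, 9.12 and 14.4 CPM in lo-lo and 1.85, 4.01 and 2.15 CPM in pDCs, Klf4 at 127, 133 and 164 CPM in lo-lo and 12.3, 25.6 and 64.8 CPM in pDCs, and Spi1, the myeloid TF PU.1, at 56.1, 55.4 and 66.9 CPM in lo-lo and 29.2, 19.1 and 15.9 CPM in pDCs. The last 3 lay lower in every pDC well than in any lo-lo well. Runx2 (462, 519 and 466 CPM in lo-lo and 433, 542 and 611 CPM in pDCs) and Bcl11a (389.8, 470.0 and 379 CPM in lo-lo and 409, 553 and 581 CPM in pDCs) overlapped between groups.

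Markers of other blood cells were checked in the same wells. None of the 16 neutrophil, 8 basophil, mast cell and eosinophil, or 12 erythroid and platelet genes passed edgeR's test. At an unadjusted p under 0.05, 2 neutrophil genes, 0 of the second list and 2 erythroid and platelet genes were lower and 0 were higher, and DESeq2 called 0, 0 and 1 of the 3 lists. With the block by replicate number, 5, 0 and 1 were lower. Hemoglobin transcripts made up most of the sum of 5995 to 8172 CPM of the last list in lo-lo and of 6711 to 13915 CPM in pDCs. S100a8, a neutrophil alarmin, was at 7892, 2368 and 2564 CPM in lo-lo and 2818, 2345 and 1484 CPM in pDC wells, with overlap (log2 fold change -0.95 ± 0.59, adjusted p = 0.326). Of 7 T and NK cell genes, Klrd1 was higher (log2 fold change 0.68 ± 0.16, adjusted p = 0.00339), while Cd3d was at 1.51, 1.35 and 0 CPM in lo-lo and 1.01, 0.309 and 0.859 CPM in pDCs. Of 12 monocyte and macrophage genes, Fn1 (log2 fold change -1.42 ± 0.24, adjusted p = 6.68e-05) and F13a1 (log2 fold change -1.24 ± 0.20, adjusted p = 3.78e-05) were lower and 0 were higher. Klrd1, Fn1 and F13a1 were named after their values were seen. The part of such cells in the results was not tested.

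The lo-hi wells, which no test above compared, lay between the groups in nearly all called genes. The mean of the 3 lo-hi wells was between the means of lo-lo and pDC wells in 936 of the 954 higher genes (98.1%) and in 1123 of the 1152 lower genes (97.5%), against 6062 of the 13187 genes not called (46.0%). On the scale of log2(CPM + 1), with lo-lo at 0 and pDC at 1, the median position of lo-hi was 0.64 for the higher and 0.59 for the lower genes. Large gaps between pDC and lo-lo leave more room for a middle value, so these shares are a description. For Cd4 the lo-hi wells were at 114, 108 and 67.2 CPM and for H2-Aa at 1826, 1469 and 1142 CPM, in both cases above every lo-lo and below every pDC well. Top2a was at 161, 166 and 219 CPM in lo-hi. The pre-cDC wells lay past lo-lo, on the side away from pDCs, in 682 of the 954 higher genes (71.5%) and in 608 of the 1152 lower genes (52.8%), against 51.1% of the genes not called. Top2a, at 407, 455 and 339 CPM in pre-cDCs, was there below every lo-lo well and above every pDC well. H2-Aa, at 651, 849.9 and 388 CPM there, overlapped with the lo-lo wells, as did Cd4 at 11.9, 21.6 and 8.49 CPM.

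**Figure D5:**
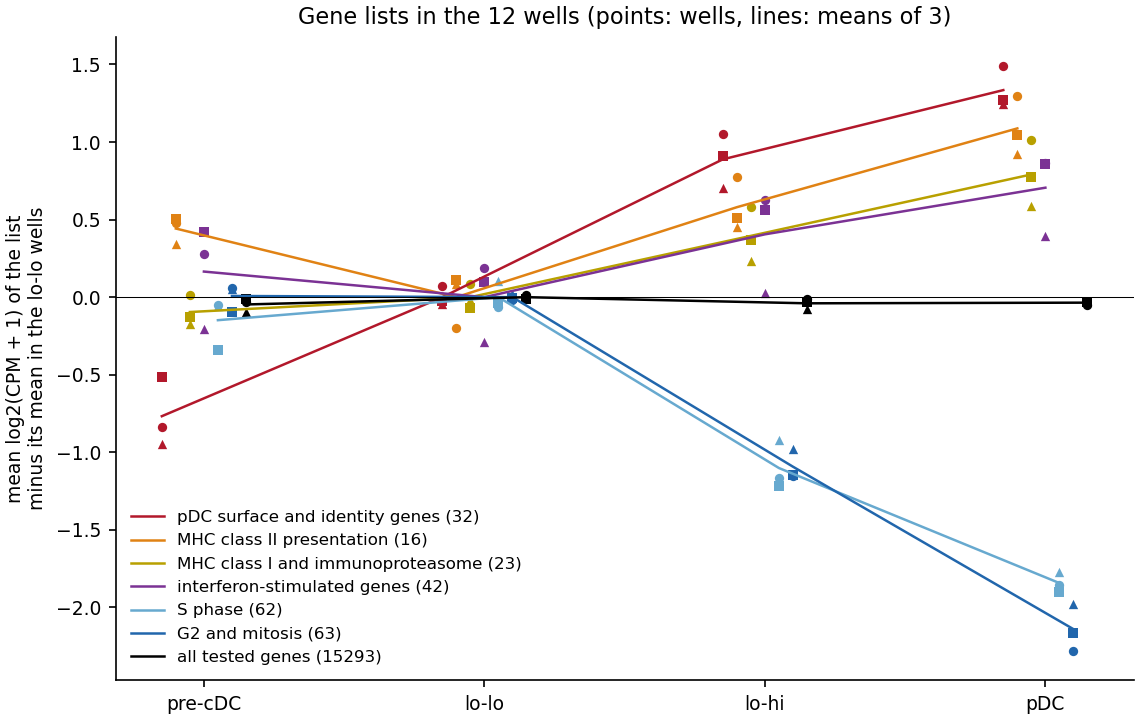
Mean log2(CPM + 1) over the tested genes of 6 lists and of all tested genes, minus the same mean in the lo-lo wells (vertical axis), in the wells of the 4 populations, with a circle, square and triangle for replicates 1, 2 and 3 and lines through the means. The S phase and mitotic lists fall from lo-lo over lo-hi to -1.77 to -2.28 in the pDC wells, and the 4 other lists lie above 0 in every pDC well, with IFN-stimulated genes spread from 0.39 to 0.87.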

How the data were processed

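The authors mapped SCRB-seq reads of 12 wells with STAR 2.5.2b (submitters' processing notes) within zUMIs to the mouse genome build GRCm38 with Ensembl genes, and deposited 1 whole-number count for each gene in each well. These counts are not normalized, and whether they are reads or molecular identifiers, and whether counting used the strand, is not given in the sources used here. The table holds 21754 genes, of which 21410 had a symbol in a reference list of gene names. GENCODE vM21 gave the positions.

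Wells were assigned as described at the start of the report. The members, the gene lists and the rules were chosen with earlier results of these data known. Genes whose counts averaged below 1 across the 12 wells were left out (6461), and the other 15293 were tested with edgeR 4.0.16 in R 4.3.3, by TMM scaling and the quasi-likelihood test with robust estimation, 4 groups in 1 fit, no covariates and a cutoff of 0.01 after Benjamini-Hochberg adjustment, the cutoff of the study, which used DESeq2's likelihood ratio test. Fold changes are pDC over lo-lo. Named genes were the 15 largest changes per direction among called genes without overlap and with at least 30 CPM in the higher group, leaving out the matched TFs, sort and sex-linked genes, predicted genes and pseudogenes, and, per list, the largest call in each direction and the first 4 symbols. Further list members were named after their values were seen. Alternatives were DESeq2 1.42.0, its size factors, other filters, a cutoff of 0.05, a test against a 2-fold change, a fit of the 6 wells, the replicate block, thinning to 1801463 counts, the deposited labels, leaving out each well and, added after seeing the data, leaving out replicate number 3. Total counts ranged from 1801463 to 5995971. The steps were tested on simulated data. Promoters came from RefSeq (GRCm38.p6), with 1 promoter, the first listed, per gene. Some genes that the rule or the lists name are not reported here.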

Additional observations from a re-analysis of the deposited data

How the results depend on the processing

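The counts of higher and lower genes were 866 and 1006 with the DESeq2 Wald test, 987 and 1130 with its size factors, 1160 and 1244 with no filter, 982 and 1095 with edgeR's own filter, 973 and 1025 with the 6 wells alone and 800 and 881 after thinning to the smallest total. They moved further with a test against a 2-fold change (182 and 381), a cutoff of 0.05 (1518 and 1730) and the deposited labels (0 and 0). Leaving out 1 well at a time gave 672 to 981 higher and 865 to 998 lower genes. With the replicate block, 1159 genes were higher and 1410 lower, among them all 954 and 1152 called without it, and Ctsa, Fcgr3, Ifit1, Il6ra, Isg15 and Nfkbia gained a call. The deviations of same-numbered pDC and lo-lo wells correlated at 0.28, 0.31 and -0.26 over 7820 genes, while sex-linked genes set replicate number 3 apart in all 4 populations. Whether a number marks 1 mouse is not stated, so both fits are given. Leaving out replicate number 3, chosen after seeing the data, gave 749 and 914. Of single genes, only the 128 named by the rule were followed through the settings (4 were not tested with edgeR's own filter). The test against a 2-fold change and the cutoff of 0.05 were not followed for single genes. In each other setting but the deposited labels, between 116 and 128 kept direction and call. With the deposited labels 21 did. There, log2 fold changes turned to Acat2 0.16, Atf4 0.0123, B2m -0.16, Bcl2l1 -0.74, Bst2 -0.0371, Ccdc162 -0.19, Ccnd3 0.0424, Cd22 0.34, Cd4 -0.0161, Cd79a -0.44, Cdca5 0.0269, Ciita -0.28, Cnn3 0.30, Cst7 0.23, Ctsc -0.37, Ctsd -0.0897, Ctsl -0.25, Cxcr3 -0.38, Cxcr5 0.16, Dtl 0.0156, Egfl7 0.20, Fen1 0.38, H2-Aa -0.28, H2-Ab1 -0.32, H2-D1 -0.34, H2-Eb1 -0.25, H2-K1 -0.0712, H2-Q6 -0.34, Hk1 -0.27, Hmgcs1 -0.14, Hoxa9 0.0726, Ifi44 -0.22, Ifit1 -1.97, Ifit2 -0.60, Ifit3 -1.22, Iglc2 -0.0791, Il27ra -0.69, Isg15 -1.0, Kit 0.14, Klk1 -0.28, Klk1b27 -0.22, Klk1b3 -0.52, Klk1b5 -0.55, Klra17 -0.19, Ldhb -0.31, Ly6c1 -0.19, Ly6d 0.74, Mcm5 0.0168, Mvk -0.0288, Nfkb2 -0.24, P2ry14 -0.13, Pgam2 -0.55, Pir -0.34, Pira2 0.16, Rpn1 0.0413, Tyms 0.0663 and Xbp1 -0.16. This grouping moves 2 of the wells to the other group, leaves out 2 and brings in 2 of other populations. After thinning, the turns were Atf4 0.0744, Cxcr5 0.39 and Mcl1 0.0154. Without replicate number 3 they were Cxcr5 0.25, Ern1 -0.0205, Ly6d 0.061, Tlr3 0.88 and Tlr9 -0.0126, and with the replicate block Ern1 -0.00324. Leaving out 1 well at a time gave values on both sides of 0, at -0.12 to 0.0499 for Atf4, -0.12 to 0.27 for Bcl2l1, -0.28 to 0.26 for Cxcr5, -0.0629 to 0.14 for Ern1, -0.15 to 0.11 for Ly6d and -1.27 to 0.57 for Tlr3. Apart from the deposited labels, 0 of the genes that turned had passed the cutoff, and the cause was not tested. A gene below 3 counts, which are 0.5 to 1.67 CPM of the raw totals, could not be compared at this depth.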
